A study of Homo sapiens with 28 samples.

Results

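Clusterin, encoded by CLU, was followed through 28 arrays of 4 multiple myeloma cell lines exposed to arsenic compounds. CLU is 1 of 19775 genes that the array names by a single symbol and 1 of 15448 that passed the filter on dim signal. It was selected on measured values of these arrays, namely a response that differed between lines and lasted to 24 h of darinaparsin. Its levels and changes are therefore given as a description, with no test. All 4 probe sets whose only symbol is CLU were read, and the brightest, 208791_at, stands for the gene unless another is named.

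Clusterin, also called apolipoprotein J, is a glycoprotein that most cells secrete after its precursor has been cleaved into a pair of linked chains. Outside the cell it binds unfolded proteins in the manner of a small heat shock protein, travels with lipoprotein particles and blocks assembly of the complement attack complex. Its promoter carries a heat shock element bound by heat shock factors, and forms kept inside the cell have been tied to survival under stress, including resistance of tumour cells to drugs. Myeloma is a cancer of plasma cells, whose main product is secreted antibody.

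U266, MM.1s, KMS11 and 8226/S are established human myeloma lines, all grown in RPMI-1640 medium with heat-inactivated serum. Each line had 2 untreated arrays, numbered control 1 and control 2 and taken at 0 h, so time in culture was not separated from treatment. Arsenic trioxide (ATO), an inorganic arsenic compound, was given for 6, 24 and 48 h at 2 µM in every line. Darinaparsin (DAR), an organic compound in which dimethylated arsenic is joined to glutathione, was given for 6 and 24 h, and its dose differed by line, being 4 µM for U266, 2 µM for 8226/S and 3 µM for the other lines. The groups thus share medium and line but not always the dose, and every treatment had 1 array per line. The 4 lines serve as replicates of a treatment, and nothing states that the arrays of a line came from separate cultures. An SD below is a spread between lines unless said to run over treatments. An SE comes from the fit over all arrays and is the same for every treatment of a gene, so it is not the spread between lines under that treatment.

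Array values are linear intensities scaled by the authors, with a trimmed mean of 500.1 on each array. With 1 array per line and treatment, precision is limited by the number of arrays. The median signal averaged 82.6 over the 12 arrays of control 1 and DAR and 128.5 over the 16 arrays of control 2 and ATO, and all 20 treated arrays were nearer to the control of their own set than to the other control of their line. DAR was therefore set against control 1 and ATO against control 2. Of 8 plasma cell markers, 7 lay above the 50th percentile of the array in all 8 controls. The exception, CD38, lay at percentiles 15.8 and 11.2 in the KMS11 controls and at 27.5 in control 2 of U266. Of the markers of other cell types, PECAM1 of endothelium lay above the 50th percentile in all controls and reached the 89.0th, while CDH5 of endothelium stayed below the 50th on every array. For epithelium, EPCAM lay at percentiles of 90.9 to 94.6 in KMS11 and 97.6 to 98.6 in 8226/S, and CDH1 at 66.1 to 95.5 in 8226/S. KRT19, the other epithelial marker, lay lower, at 5.5 to 15.1 in KMS11 and 11.7 to 57.7 in 8226/S. The fibroblast marker COL1A1 reached the 83.9th percentile and LUM stayed below the 50th on every array. CD3E of T cells reached the 77.0th, LYZ of monocytes the 64.8th and PF4 of platelets the 58.3rd, and CD14 and PPBP stayed below the 50th throughout. The summed signal of the epithelial list was 30.2 to 11826 in controls and 26.3 to 14424 after treatment, against 44496 to 109855 and 26338 to 100599 for the plasma cell list. The part of these markers in the CLU values was not tested. Fewer cells carrying a transcript and less of it per cell cannot be told apart in such arrays.

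CLU was an abundant transcript before any treatment, and MM.1s held the most. In control 1 the signal was 4407 in MM.1s, 2122 in U266, 1343 in 8226/S and 1156 in KMS11. In control 2 it was 4377 in MM.1s, 2171 in 8226/S, 2039 in U266 and 1569 in KMS11. MM.1s exceeded the other lines in both controls by more than any line's controls differed, while U266 and 8226/S changed places and were not separable. The log2 difference of MM.1s from the mean of the other lines was 1.37. Between the controls, CLU was higher by 0.43 in KMS11 and 0.68 in 8226/S in control 2, and differed by -0.06 in U266 and -0.01 in MM.1s. The dimmer probe sets ordered the lines otherwise. In 222043_at MM.1s was highest in control 1, but in control 2 it had 95.1 against 147 in 8226/S. In 1559228_at U266 was highest in control 1 and KMS11 in control 2.

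With treatment, CLU lay above its own control on all 20 treated arrays. Its signal ranged from 1156 to 15330 over the 28 arrays, which placed it between the 86.5th and the 99.4th percentile of its array. In the brightest probe set, no treated array of a line overlapped with either control of that line. In 208792_s_at this did not hold for U266, where the signal was 1949 after 6 h of ATO and 2185 in control 1.

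In U266 the signal was 2039 in control 2 and 2975, 5048 and 4646 after 6, 24 and 48 h of ATO. With DAR in U266 it was 2122 in control 1, 5065 after 6 h and 4625 after 24 h. The lowest treated value of U266 was that at 6 h of ATO, and the other 4 lay close together.

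In MM.1s the signal was 4377 in control 2 and 13111, 15330 and 11773 after 6, 24 and 48 h of ATO. Its DAR values were 4407 in control 1, 14380 after 6 h and 11934 after 24 h. The highest signal of the series, 15330, was thus reached in the line with the highest untreated level.

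In KMS11 the signal was 1569 in control 2 and 7705, 12540 and 10621 after 6, 24 and 48 h of ATO. Control 1 of KMS11 gave 1156, against 10308 after 6 h and 9304 after 24 h of DAR. KMS11 started from the lowest untreated level in both controls, and its treated values, 7705 to 12540, lay above all those of U266.

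In 8226/S the signal was 2171 in control 2 and 4774, 5768 and 4975 after 6, 24 and 48 h of ATO. Control 1 of 8226/S gave 1343, against 11370 after 6 h and 9348 after 24 h of DAR. Both DAR arrays of this line stood above all 3 of its ATO arrays.

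**Figure D1:**
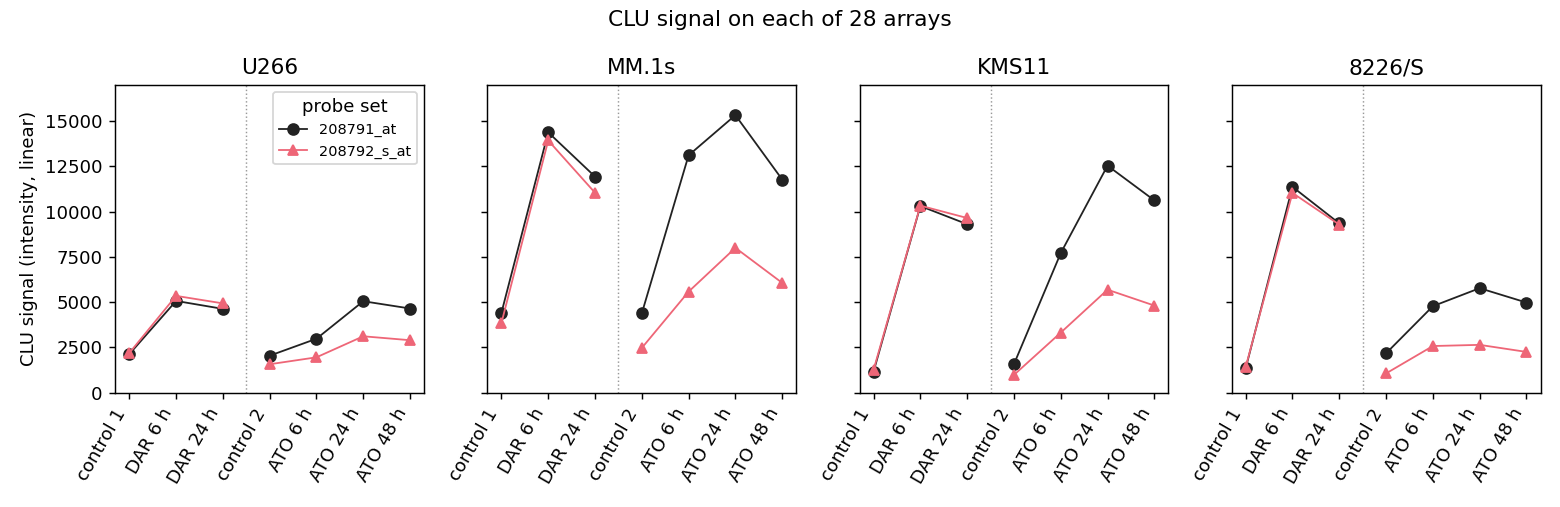
CLU signal (linear intensity, vertical axis) on each of the 28 arrays, 1 panel per line, for the probe sets 208791_at (black circles) and 208792_s_at (red triangles). Each point is 1 array, and the dotted line parts control 1 with DAR from control 2 with ATO. Treated arrays lie above their own control in every panel, with the highest value, 15330, in MM.1s after 24 h of ATO. The probe sets coincide left of the dotted line and part to the right of it.

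Changes were taken as log2(value + 29) minus that of the line's own control, and the mean and SD run over the lines. At 6 h of ATO, CLU was higher by 1.38 ± 0.73 (SD, n = 4), a 2.60-fold mean difference, with 0.54 in U266, 1.13 in 8226/S, 1.58 in MM.1s and 2.28 in KMS11. At 24 h of ATO the mean was 1.87 ± 0.77 (SD, n = 4; 3.65-fold), with 1.30 in U266, 1.40 in 8226/S, 1.80 in MM.1s and 2.98 in KMS11. After 48 h it was 1.63 ± 0.75 (SD, n = 4; 3.10-fold), with 1.18 in U266, 1.19 in 8226/S, 1.42 in MM.1s and 2.74 in KMS11. The lines kept one order at all 3 ATO times, KMS11 first, then MM.1s, 8226/S and U266. In 208792_s_at, 8226/S had 1.26 and MM.1s 1.17 at 6 h of ATO, so there these lines changed places.

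With DAR the mean change was 2.28 ± 0.95 (SD, n = 4; 4.86-fold) at 6 h, from 1.24 in U266 and 1.70 in MM.1s to 3.05 in 8226/S and 3.13 in KMS11. At 24 h it was 2.07 ± 0.94 (SD, n = 4; 4.21-fold), from 1.11 in U266 and 1.43 in MM.1s to 2.77 in 8226/S and 2.98 in KMS11. U266 was lowest and KMS11 highest under all 5 treatments, 1.56 to 1.88 log2 units apart. 8226/S lay between U266 and MM.1s at 6 h of ATO, near U266 at 24 and 48 h of ATO, and near KMS11 under DAR. Its place rests on control 2 under ATO and on control 1 under DAR, and its control 2 was higher by 0.68.

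By line, the change averaged over the 5 treated arrays was 2.82 ± 0.33 (SD over treatments) in KMS11, 1.91 ± 0.93 in 8226/S, 1.59 ± 0.17 in MM.1s and 1.07 ± 0.31 in U266. 8226/S differed from KMS11 and from MM.1s by less than its own SD, while MM.1s and U266 were separated by more than either SD. The order differs from that of the untreated levels, in which MM.1s was first and KMS11 last. By treatment, the means ran from ATO 6 h through ATO 48 h, ATO 24 h and DAR 24 h to DAR 6 h, and every pair of neighbours differed by less than the SD between lines. The lines are paired across treatments, so that SD is not the spread of a difference between treatments. Differences between times within each line are given below.

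**Figure D2:**
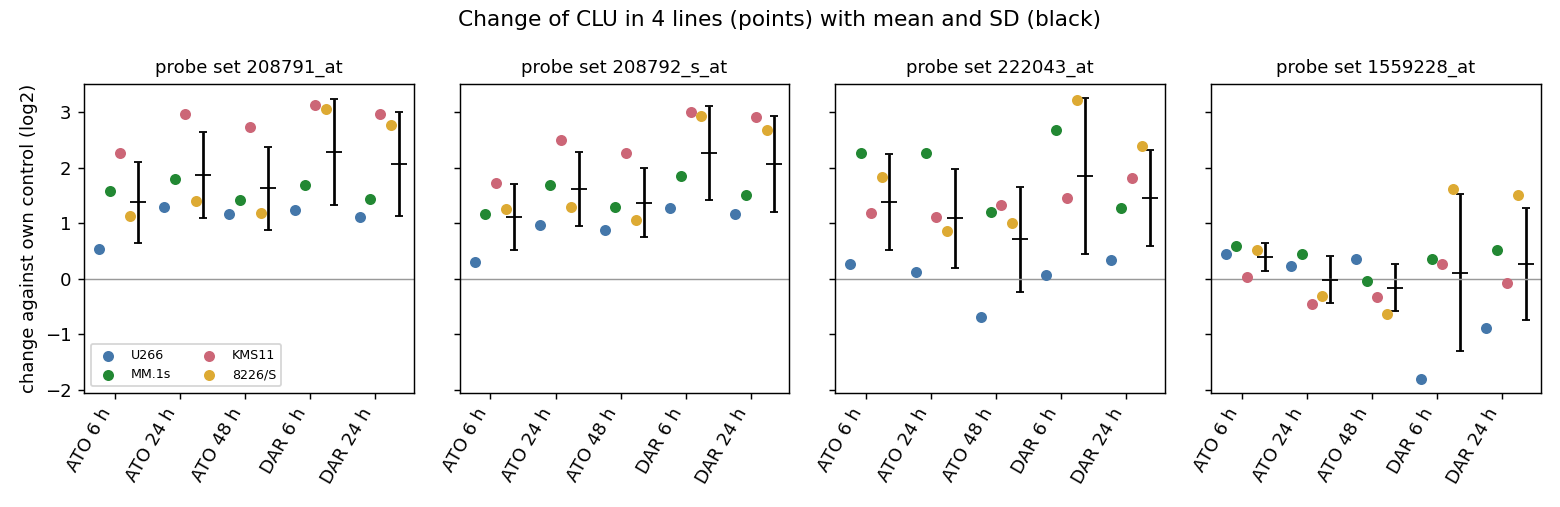
Change of CLU against the line's own control (log2, vertical axis) for the 5 treatments, 1 panel per probe set, with 1 coloured point per line and the mean and SD of the 4 lines in black. In the 2 brightest probe sets all 20 points lie above 0, U266 is lowest and KMS11 highest. 1559228_at scatters around 0, with means between -0.16 and 0.40.

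Within a line the differences between times varied less over the lines than the changes themselves. From 6 to 24 h of ATO, CLU was higher by a further 0.49 ± 0.28 (SD, n = 4), with 0.76 in U266, 0.70 in KMS11, 0.27 in 8226/S and 0.23 in MM.1s. From 24 to 48 h the difference was -0.24 ± 0.11 (SD, n = 4), with -0.38 in MM.1s, -0.24 in KMS11, -0.21 in 8226/S and -0.12 in U266. All 4 lines thus had their highest ATO signal at 24 h. From 6 to 24 h of DAR the difference was -0.21 ± 0.08 (SD, n = 4), with -0.28 in 8226/S, -0.27 in MM.1s, -0.15 in KMS11 and -0.13 in U266. At 24 h of DAR, CLU kept 91.4% of its fold at 6 h in U266, 90.3% in KMS11, 83.0% in MM.1s and 82.3% in 8226/S. In the dimmer probe set 222043_at the shares were 37.5% in MM.1s and 56.3% in 8226/S, against 121.7% in U266 and 127.9% in KMS11.

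The compounds were given at the same dose, 2 µM, only in 8226/S. There CLU was higher by 3.05 with DAR and 1.13 with ATO at 6 h, and by 2.77 with DAR and 1.40 with ATO at 24 h. Each of these is 1 array against its own control, and the ATO and DAR arrays belong to the array sets that differ in median signal, so no error can be put on the difference. Untreated 8226/S gave 1343 in control 1 and 2171 in control 2, a gap of 0.68 log2 units that enters the difference between compounds. In 208792_s_at that gap was -0.41. Its changes in 8226/S were 2.93 with DAR and 1.26 with ATO at 6 h, and 2.69 and 1.29 at 24 h. In the other lines doses differed and values stand side by side only. At 6 h, U266 had 1.24 at 4 µM DAR and 0.54 at 2 µM ATO, MM.1s had 1.70 at 3 µM DAR and 1.58 at 2 µM ATO, and KMS11 had 3.13 at 3 µM DAR and 2.28 at 2 µM ATO. At 24 h, KMS11 had 2.98 with either compound, MM.1s had 1.43 with DAR and 1.80 with ATO, and U266 had 1.11 with DAR and 1.30 with ATO.

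The probe sets of CLU differed in brightness and in what they showed. 208792_s_at, which had a mean signal of 4970 against 6957 for 208791_at, was likewise above its own control on all 20 treated arrays. Its mean changes were 1.12 ± 0.59, 1.62 ± 0.66 and 1.37 ± 0.62 (SD, n = 4) after 6, 24 and 48 h of ATO and 2.27 ± 0.85 and 2.07 ± 0.86 after 6 and 24 h of DAR. Each of these lay within 1 SD of the value of 208791_at. 222043_at was dimmer, with a mean signal of 411, and lay above the 50th percentile on 21 of 28 arrays.

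In 222043_at the order of the lines was another one. Its mean changes were 1.39 ± 0.87, 1.09 ± 0.89 and 0.71 ± 0.94 (SD, n = 4) with ATO and 1.86 ± 1.41 and 1.46 ± 0.87 with DAR. KMS11, highest in 208791_at under all 5 treatments, was highest here only after 48 h of ATO, and its changes were 1.11 to 1.81. At 6 h of ATO KMS11 had 1.18 and MM.1s 2.27, at 24 h of ATO 1.11 and 2.27, and at 6 h of DAR KMS11 had 1.46 and 8226/S 3.22. In 8226/S the signal of 222043_at was 228 in control 1 and 2365 after 6 h of DAR, and in MM.1s 280 and 1962. In U266 the same arrays gave 114 and 121, and after 48 h of ATO the U266 signal was 43.1 against 87.2 in control 2. This probe set thus showed no higher signal in U266 beyond 0.35 log2 units under any treatment. 1559228_at, with a mean signal of 120 and only 12 arrays above the 50th percentile, gave means of 0.40, -0.02 and -0.16 with ATO and 0.11 and 0.26 with DAR, each within 1 SD of 0 apart from the first.

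The bright pair also recorded the difference between array sets. The signal of 208792_s_at divided by that of 208791_at was 0.872 to 1.08 (median 1.02) on the 12 arrays of control 1 and DAR. On the 16 arrays of control 2 and ATO it was 0.425 to 0.768 (median 0.518), and the sets did not overlap. From control 1 to control 2, 208792_s_at differed by -0.35 to -0.63 in the 4 lines, where 208791_at differed by -0.06 to 0.68. Where CLU signals of DAR and ATO arrays are named together above, they are those of 208791_at. The part of this shift between sets in those comparisons and in the changes was not tested. With both controls of a line pooled, the mean changes of 208791_at were 1.51, 2.00 and 1.76 with ATO and 2.15 and 1.94 with DAR.

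Among all 15448 genes of an array, CLU ranked high in size of change, which the selection made likely. In KMS11 it was 10th from the top after 24 h of DAR, 28th after 6 h of DAR and 19th after 24 h of ATO. In 8226/S it was 19th after 6 h and 33rd after 24 h of DAR, but 435th after 6 h of ATO. In MM.1s it ranked between 183rd and 457th. U266 gave the lowest place, 1808th after 6 h of ATO, with 11.7% of genes higher, and 278th after 24 h of ATO.

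Genes whose changes ran most like those of CLU were taken by Pearson's r over the 20 treated arrays, among 15447 genes. The median r of all genes was 0.04 and 90% of them lay between -0.52 and 0.55. Up to 3 of these points share 1 control array, and 5 share a line, so r is a description and carries no p. The 10 highest were L1CAM (0.89), a neural adhesion molecule, CAPN2 (0.88), the large subunit of a calcium-activated protease, HYI (0.85), a hydroxypyruvate isomerase homologue, PEA15 (0.84), a phosphoprotein that binds death effector domains and ERK, ATP13A4 (0.84), a P-type ATPase, CDKN2B (0.83), the cyclin-dependent kinase inhibitor p15, BMP5 (0.83), a bone morphogenetic protein, RCAN3 (0.83), a regulator of calcineurin, PDE11A (0.83), a cyclic nucleotide phosphodiesterase, and NEK7 (0.83), a mitotic kinase. The tenth and the eleventh place were separated by r of 0.827 and 0.823. Some of the 10 were dim. ATP13A4 lay above the 50th percentile on 7 of 28 arrays, with signals of 4.08 to 219, CDKN2B on 16, BMP5 on 17, PDE11A on 18 and HYI on 20. The part of dim signal in their r was not tested.

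These genes shared with CLU a high place for KMS11. L1CAM had mean changes of 2.91 in KMS11, 1.23 in 8226/S, 0.46 in MM.1s and -0.33 in U266. Its signal in KMS11 was 53.9 in control 2 and 230, 791 and 964 after 6, 24 and 48 h of ATO, and 35.7, 197 and 1154 in control 1 and after 6 and 24 h of DAR. In 8226/S it was 12.4 in control 1, 271 after 6 h and 653 after 24 h of DAR, whereas the ATO arrays of 8226/S, 124 to 239, surrounded their control at 223. L1CAM lay above the 50th percentile on 17 of 28 arrays.

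CAPN2 was bright on all 28 arrays, from 563 to 11763. In KMS11 it went from 1058 in control 2 to 5867 after 24 h of ATO, and from 2343 in control 1 to 11763 after 24 h of DAR. In 8226/S it was 563 in control 1 and 3639 after 24 h of DAR, but 700 in control 2 and 783 after 24 h of ATO. In U266 its mean change was -0.20.

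PEA15, also above the 50th percentile on all arrays, had mean changes of 1.68 in KMS11, 0.87 in 8226/S, 0.83 in MM.1s and 0.30 in U266. NEK7 followed the same order with small changes, 0.38 in KMS11, 0.31 in 8226/S, 0.20 in MM.1s and 0.03 in U266. Levels of all 28 arrays, controls included, were also centred within each line and array set, which removes differences in mean level between lines. The r to CLU of these levels also takes in the step from control to treated arrays. It was 0.89 for PEA15, 0.83 for NEK7, 0.75 for CAPN2 and 0.71 for L1CAM. For HYI it was 0.47, for PDE11A 0.33 and for ATP13A4 0.07.

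The list of nearest genes depended on the arrays taken. Ranking by Spearman's rho kept 3 of the 10, ATO arrays alone kept 1 and DAR arrays alone kept 0. Without KMS11 only 1 remained in the first 10, and r of PEA15 was 0.70 and that of CAPN2 0.78. Read against 208792_s_at, 5 remained, and against 222043_at none did.

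The 5 genes of lowest r were ABT1 (-0.87), an activator of basal transcription, NOP10 (-0.82), a subunit of the H/ACA small nucleolar ribonucleoprotein, HS3ST4 (-0.81), a heparan sulfate sulfotransferase, PRPF38B (-0.81), a pre-mRNA splicing factor, and UBP1 (-0.81), a transcription factor. HS3ST4 ran from -1.18 in KMS11 after 24 h of DAR to 1.35 in U266 after 6 h of ATO. It was dim, with signals of 12.1 to 315, and lay above the 50th percentile on 10 of 28 arrays. ABT1 had mean changes of -0.61 in KMS11 and -0.35 in 8226/S, against 0.03 in MM.1s and 0.10 in U266. PRPF38B had mean changes of -0.83 in KMS11, -0.40 in 8226/S, -0.20 in MM.1s and -0.18 in U266, and reached -1.28 in 8226/S after 6 h of DAR.

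**Figure D3:**
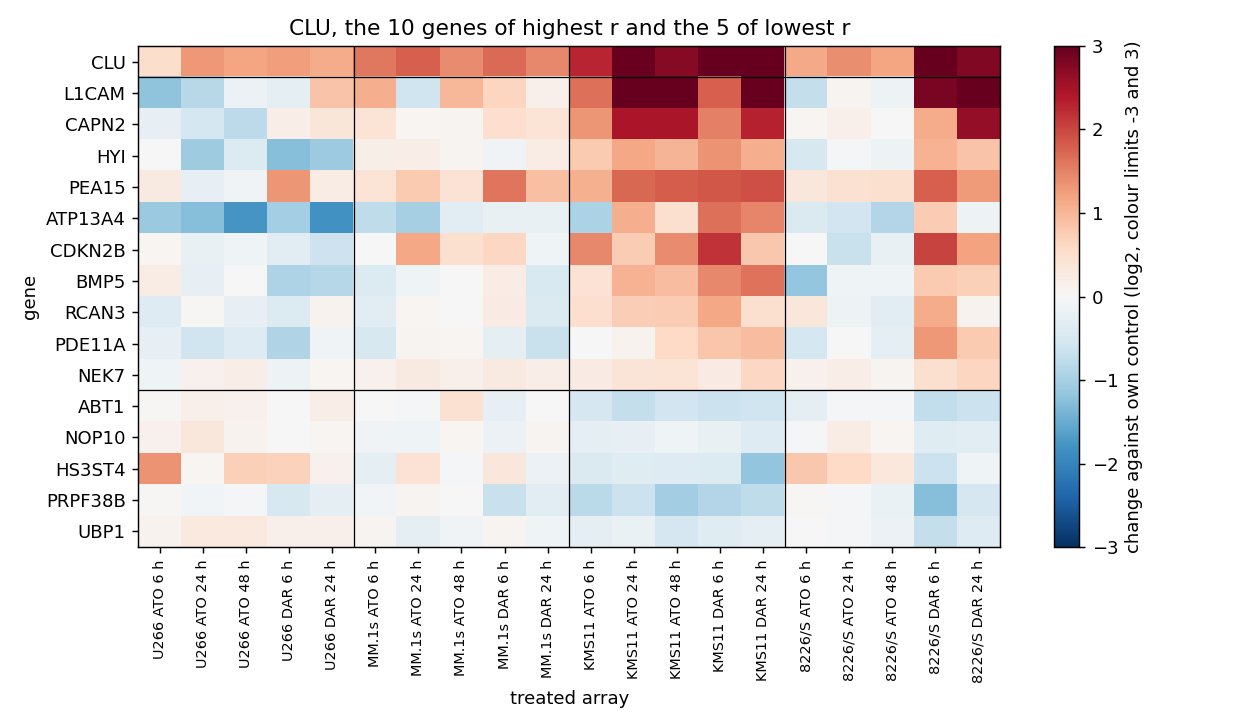
Change against own control (log2, colour from blue below 0 to red above 0, with values past -3 or 3 drawn at the limit) of CLU, the 10 genes of highest r and the 5 of lowest r (rows) on the 20 treated arrays (columns, ordered by line). Red is strongest in KMS11 and in the DAR arrays of 8226/S, and the genes of highest r are mostly pale or blue in U266. L1CAM averages 2.91 in KMS11 and -0.33 in U266.

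The other genes of clusterin biology were taken from 6 lists of 88 genes, of which 70 were tested and 18 were not analysed here. They were tested with limma across all 15448 genes, with each line's own control as baseline and Benjamini-Hochberg adjustment, and a gene is said to rise or fall at an adjusted p under 0.05. With 6 h of ATO, 9 of the 70 rose and 5 fell, against 3.75% of all genes higher and 2.67% lower. With 24 h of ATO, 2 rose and 5 fell, against 2.74% and 2.29% of all genes, and with 48 h again 2 rose and 5 fell, against 6.4% and 5.49%. With 6 h of DAR, 17 rose and 1 fell, against 6.86% and 6.37%. With 24 h of DAR, 1 rose and 0 fell, against 0.492% and 0.129%. There 11 of the 70 had an unadjusted limma p under 0.05, beside 2270 of all 15448 genes. After 6, 24 and 48 h of ATO, 2964, 2798 and 3802 of all genes had an unadjusted limma p under 0.05, and 3980 after 6 h of DAR. Counts of list members at an unadjusted p below stand beside these and are not read as a result about the lists. Centring each array on its median turned the balance of all genes called at 3 treatments. It went from 423 higher and 354 lower to 225 and 276 at ATO 24 h, and from 989 and 848 to 492 and 925 at ATO 48 h. At DAR 6 h it went from 1059 and 984 to 692 and 1161. At DAR 24 h the balance narrowed without turning, from 76 and 20 to 41 and 33. CLU itself belongs to the contrasts that selected it, and its place against these shares is not read.

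Heat shock factor 1 and its chaperone targets held most of the list genes that rose. Of 12 tested, 8 rose after 6 h of ATO and 9 after 6 h of DAR, while 1 rose at each later time, BAG3 after 24 and 48 h of ATO and HSPA6 after 24 h of DAR. None fell by limma, and 3 to 9 members had an unadjusted p under 0.05 in each comparison. Their median change was 1.10 and 1.12 at 6 h of ATO and DAR, against -0.00 and 0.02 over all genes, and 0.46, 0.12 and 0.19 at ATO 24 h, ATO 48 h and DAR 24 h. HSPB1, HSP90AA1 and HSPE1 were the other members that rose at 6 h with both compounds, and HSPD1 rose at 6 h of DAR. HSF1, the factor itself, passed at no time, with changes of -0.37 to -0.13.

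BAG3, the co-chaperone that links HSP70 to selective autophagy, had a signal of 1375 in control 2 and 10419 after 6 h of ATO in U266, 1445 and 4607 in MM.1s, 966 and 9626 in KMS11, and 2107 and 8705 in 8226/S. Its signal after 24 h of ATO was 2880, 3575, 2249 and 2909 in the same order of lines, between control and 6 h in each. It rose by 2.46 ± 0.23 (SE) after 6 h of ATO (limma adjusted p = 3.08e-07) and by 2.88 ± 0.23 after 6 h of DAR (adjusted p = 6.34e-08), higher in 4 of 4 lines both times. At 24 and 48 h of ATO it rose by 1.00 and 0.78 (adjusted p = 0.012 and 0.028), calls that were lost without U266, MM.1s or KMS11, where adjusted p reached 0.084 and 0.149, and the second also with median centring. At 24 h of DAR its change was 0.63 (adjusted p = 0.197).

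DNAJB1, an HSP40 partner of HSP70, rose by 1.64 ± 0.19 (SE) after 6 h of ATO and by 1.52 ± 0.19 after 6 h of DAR (limma adjusted p = 4.74e-06 and 8.97e-06), and its change was -0.05 at 24 h of DAR. HSPH1, an HSP110 exchange factor, rose by 1.43 ± 0.14 and 1.55 ± 0.14 (limma adjusted p = 3.27e-07 and 1.46e-07), and its change was -0.01 at 24 h of DAR. SERPINH1, the collagen chaperone HSP47, rose by 3.88 ± 0.43 after 6 h of DAR (limma adjusted p = 2.80e-06), and its change was 0.36 at 24 h. At 6 h of ATO it rose by 1.63 (adjusted p = 0.021) with MM.1s at -0.41, a call lost with an offset of 1 and without U266, KMS11 or 8226/S, where adjusted p reached 0.145.

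HSPA6, an HSP70 that is nearly silent without stress, was the list gene that rose after 24 h of DAR. Its signal in U266, MM.1s, KMS11 and 8226/S was 41.6, 12, 43.2 and 191 in control 1, 2335, 10412, 8309 and 8305 after 6 h of DAR, and 197, 1543, 411 and 2614 after 24 h. The treated arrays stood above their own control in all 4 lines. Control 1 lay below the 50th percentile of its array in U266, MM.1s and KMS11, so the size of the log2 change depends on the offset. It rose by 6.29 ± 0.57 (SE) at 6 h and by 3.28 ± 0.57 at 24 h (limma adjusted p = 2.54e-07 and 0.010), and the call at 24 h was lost without KMS11 or 8226/S, where adjusted p reached 0.126. With offsets of 1 and 100 the changes were 7.10 and 5.35 at 6 h and 4.02 and 2.5 at 24 h. After 6 h of ATO it rose by 3.9 (adjusted p = 1.41e-04).

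The values of CLU and these chaperones over time stand side by side as follows. From 6 to 24 h of DAR the mean change of CLU went from 2.28 to 2.07, that of BAG3 from 2.88 to 0.63 and that of HSPH1 from 1.55 to -0.01. From 6 to 24 h of ATO, CLU went from 1.38 to 1.87, BAG3 from 2.46 to 1.00 and DNAJB1 from 1.64 to 0.48. HSPA6 had 3.28 at 24 h of DAR, above the 2.07 of CLU, and 1.25 and 1.61 at 24 and 48 h of ATO, and the ATO values did not pass. The lines differed in order as well: for BAG3 at 6 h of ATO, U266 had 2.90 and MM.1s 1.65, where CLU had 0.54 and 1.58. The difference between CLU and these genes was not tested, since CLU was selected for lasting to 24 h.

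**Figure D4:**
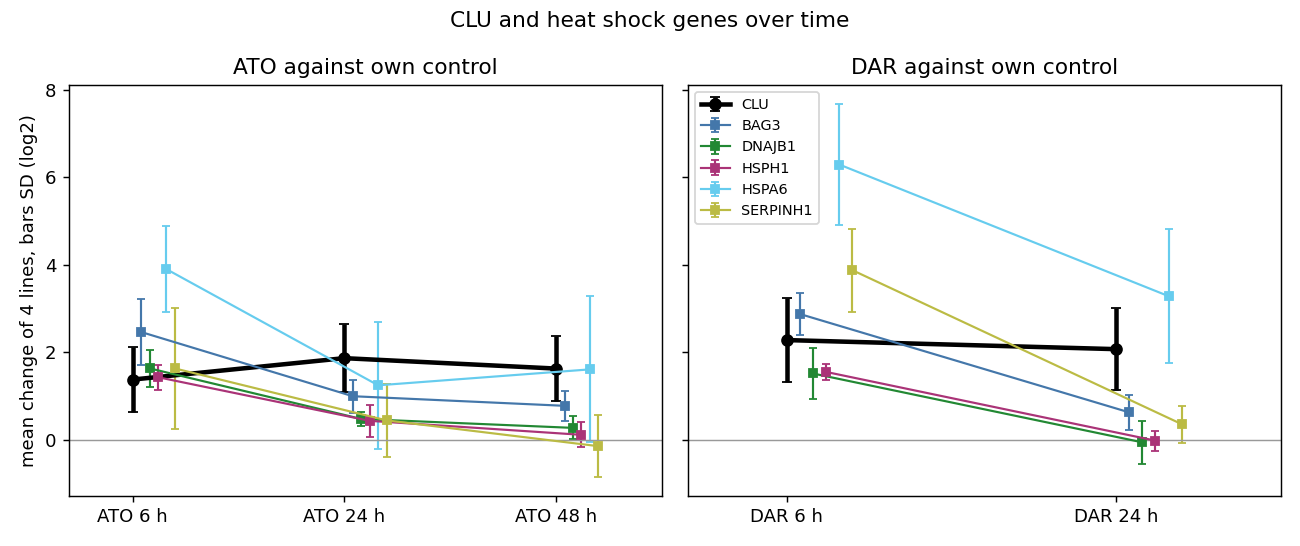
Mean change of the 4 lines against own control (log2, vertical axis) with SD bars for CLU (black) and 5 heat shock genes, at 6, 24 and 48 h of ATO (left) and 6 and 24 h of DAR (right). CLU goes from 2.28 to 2.07 between 6 and 24 h of DAR, while BAG3 goes from 2.88 to 0.63, SERPINH1 from 3.88 to 0.36 and HSPA6 from 6.29 to 3.28. Points are shifted sideways to keep the bars apart.

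Of 17 tested transcription factors and signals known to act on CLU, 5 rose after 6 h of DAR: JUN, JUNB and JUND of the AP-1 family, STAT3 and the NF-kB subunit RELA. None fell there, and 7 had an unadjusted limma p under 0.05. With both controls of a line pooled only 1 of the 17 rose. JUN had a signal of 1519, 2708, 691 and 2088 in control 1 of U266, MM.1s, KMS11 and 8226/S and 10626, 13454, 7724 and 15133 after 6 h of DAR. All 4 DAR values exceeded all 4 controls. JUN rose by 2.84 ± 0.31 (SE; limma adjusted p = 2.88e-06), and at 24 h its change was 0.50. JUND rose by 1.16 (adjusted p = 4.95e-05), with an adjusted p of 0.063 when controls were pooled.

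With ATO none of the 17 rose, with 4, 5 and 7 at an unadjusted limma p under 0.05 after 6, 24 and 48 h. FOS, the AP-1 partner of JUN, fell by 2.96, 3.59 and 3.33 at these times (limma adjusted p = 4.06e-04, 6.87e-05 and 9.48e-05). Its control 2 signal was 1996 in U266, 820 in MM.1s, 135 in KMS11 and 424 in 8226/S, against 15.3, 11.9, 32.2 and 142 in control 1. FOS was thus higher in control 2 than in control 1 in every line, and with both controls pooled adjusted p was 0.212, 0.081 and 0.089. EGR1, an immediate early zinc finger factor, fell by 2.63 at 48 h of ATO (adjusted p = 0.023), with -6.70 in U266, -4.02 in MM.1s, 0.21 in KMS11 and -0.02 in 8226/S. That call was lost without U266 or MM.1s, where adjusted p reached 0.255, with the mean of its probe sets, and with pooled controls, where it was 0.239.

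MYBL2, B-MYB, which drives cell cycle genes, fell by 1.51 after 48 h of ATO (limma adjusted p = 1.55e-05) and did so without each line and with pooled controls. MYC fell by 1.31 after 6 h of ATO (adjusted p = 0.028), a call lost with the mean of its probe sets and without U266, KMS11 or 8226/S, where adjusted p reached 0.264. After 24 h of DAR none of the 17 passed by limma and 2 had an unadjusted p under 0.05.

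Among 7 tested receptors that bind or take up clusterin, none passed after ATO at any time, by adjusted or unadjusted limma p under 0.05. After 6 h of DAR LRP8, the apolipoprotein E receptor 2, fell by 0.57 (limma adjusted p = 0.045). That call was lost without U266, MM.1s or KMS11 and with quantile normalization or no dim filter, and adjusted p reached 0.368. LRP1, a large endocytic receptor, rose by 0.73 (adjusted p = 0.029), a call lost with an offset of 100, quantile normalization, median centring and the mean of probe sets, and without MM.1s, KMS11 or 8226/S, where adjusted p reached 0.160. With pooled controls its change was -0.00 (adjusted p = 0.998). Its signal was 97.7, 19.0, 45.3 and 142 in control 1 of U266, MM.1s, KMS11 and 8226/S and 170, 242, 205 and 316 in control 2. After 24 h of DAR none passed, with 1 at an unadjusted p under 0.05.

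The extracellular chaperones and apolipoproteins, the proteins most like clusterin in role, did not pass in any comparison. None of 10 tested was called by limma, and 0 to 2 had an unadjusted p under 0.05. Their median change lay between -0.30 and 0.06. APOE, the main apolipoprotein of the brain, had changes of 0.22, 0.14 and 0.18 with ATO and 0.33 and 0.06 with DAR. A2M, alpha-2-macroglobulin, which like clusterin traps misfolded proteins, had changes of -0.31 to -0.02.

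Of 7 tested genes of terminal complement and its inhibitors, only CD46 passed. CD46, a membrane cofactor for the cleavage of C3b and C4b, fell by 0.46 after 6 h and by 0.40 after 24 h of ATO (limma adjusted p = 0.015 and 0.042). Both calls were lost without U266, MM.1s or KMS11, where adjusted p reached 0.101 and 0.331, and the second also with median centring, no dim filter or the mean of probe sets. After 48 h of ATO and after 6 and 24 h of DAR none passed by limma, with 0, 2 and 1 at an unadjusted p under 0.05. CD59, which like clusterin blocks the attack complex, had changes of 0.05 to 0.21.

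Of 17 tested partners of intracellular clusterin and of its processing, MAP1LC3B, the LC3 protein of autophagosome membranes, rose at all 3 ATO times and at 6 h of DAR. Its signal in U266, MM.1s, KMS11 and 8226/S was 4339, 2084, 2662 and 1225 in control 2 and 8270, 4273, 10786 and 2069 after 48 h of ATO. It was higher in each line, by 1.18 ± 0.16 (SE) on average (limma adjusted p = 6.16e-05), and by 1.09 at 6 h of ATO, 0.95 at 24 h of ATO and 1.09 at 6 h of DAR. These 4 calls held without each line and with pooled controls. At 24 h of DAR its change was 0.61 (adjusted p = 0.079).

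BCL2L1, the survival protein BCL-XL, fell by 0.98, 0.83 and 1.33 after 6, 24 and 48 h of ATO (limma adjusted p = 0.006, 0.023 and 2.93e-04). Its signal in U266, MM.1s, KMS11 and 8226/S was 2004, 2597, 1231 and 1058 in control 1 and 3257, 7427, 3665 and 2913 in control 2. With both controls pooled adjusted p was 0.476, 0.703 and 0.106. The call at 6 h was also lost without KMS11, and that at 24 h without U266, MM.1s or KMS11, where adjusted p reached 0.191. HSPA5, the endoplasmic reticulum chaperone BiP, fell by 0.78 after 24 h of ATO (adjusted p = 0.004), a call lost without MM.1s or KMS11, where adjusted p reached 0.057. XRCC5, a Ku subunit, fell after 6 h of ATO, and CALR, an endoplasmic reticulum chaperone, fell after 24 and 48 h.

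TGFBR1, a TGF-beta receptor, rose by 0.68 after 6 h of DAR (limma adjusted p = 0.005), with an adjusted p of 0.052 when controls were pooled and up to 0.096 without MM.1s or 8226/S. FURIN, a proprotein convertase, XRCC6, the Ku70 subunit that binds nuclear clusterin, and BAX, the death effector that intracellular clusterin binds, passed at no time. Their changes were -0.22 to 0.20, -0.24 to 0.06 and -0.22 to 0.40. After 24 h of DAR none of the 17 passed by limma, with 4 at an unadjusted p under 0.05, and with pooled controls 1 rose and 2 fell.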

How the data were processed

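The authors deposited intensity values made with GCOS, per the submitters' processing notes (no version in the sources used here). Of 54675 probe sets, 41097 carry 1 gene symbol, 1801 several and 11777 none in the platform table, and 41037 of the single-symbol probe sets were matched to the RefSeq gene table for names. Values were taken as log2(value + 29). A gene was read from its brightest probe set on average and tested if above the 50th percentile on at least 4 arrays. limma 3.58.1 (R 4.3.3; lmFit, eBayes with a variance trend) was fitted on all arrays with a baseline for each line and control number and 5 treatment effects, and was tested on simulated data. Arrays of 1 cell line are paired across treatments, and the control number is the block, since all 20 treated arrays lay nearest to the control so assigned. No array was a copy (highest r 0.966). The p-values measure spread between these arrays, which may be technical.

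The gene and the lists were chosen with earlier results of these data known. Genes named are the 10 highest and 5 lowest r, up to 4 called members per list with the smallest p, and a fixed set. JUNB, STAT3, RELA, HSPB1, HSP90AA1, HSPD1, HSPE1, XRCC5 and CALR were named after their values were seen. Alternatives changed the offset, normalization, dim filter, probe set, controls and lines.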

Additional observations from a re-analysis of the deposited data

Results flagged for a closer look

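Among the 25 named list genes under 5 treatments, 1 line stood apart from the other lines in 10 of 125 groups of 4 lines (Dixon's test at 95%). Chance flags about 1 in 20 independent groups, and these groups share controls. CLU and the genes picked for their likeness to it were left out, since differences between lines had chosen them.

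MM.1s had 1.34 for BAX after 6 h of DAR, against 0.03 to 0.14 elsewhere. At 24 h of ATO it had 0.37 for A2M and 0.98 for HSPH1. At 6 h of ATO it had -0.41 for SERPINH1, against 2.15 to 2.56, and -1.08 for MYBL2. KMS11 had 0.41 for FURIN after 48 h of ATO and -0.17 for XRCC6 after 6 h of ATO. U266 had 0.24 for HSF1 after 6 h of DAR and 0.32 for HSPH1 after 24 h of DAR. 8226/S had -0.32 for CD46 after 6 h of ATO.

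Against each compound's own control, 2 genes had changes of opposite sign in all lines. At 6 h the mean change of FOS was -2.96 with ATO and 1.31 with DAR, 4.27 apart, and at 24 h that of EGR1 was -2.26 and 1.27, 3.53 apart. These differences were not tested. With both controls of a line pooled the opposite signs were gone, at -1.37 and -0.28 for FOS and -0.96 and -0.02 for EGR1. The EGR1 signal in U266, MM.1s, KMS11 and 8226/S was 913, 19.1, 13.5 and 46.7 in control 1 and 8868, 740, 144 and 134 in control 2, higher in control 2 in every line. Doses also differed in 3 lines.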

How the results depend on the processing

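Under offsets of 1 and 100, quantile normalization, median centring and pooled controls, the mean change of CLU stayed within 1 SD of its value. The same held for 208792_s_at. Leaving out a line cannot move the mean by 1 SD of the same lines, so that check could not fail. Against 222043_at the mean change was 1.09 at 24 h and 0.71 at 48 h of ATO. Against 1559228_at it was 0.40, -0.0173 and -0.16 with ATO and 0.11 and 0.26 with DAR, reversed at ATO 24 h and 48 h. In single lines, 222043_at gave -0.69 in U266 at ATO 48 h. 1559228_at gave -1.79 and -0.89 in U266 at 6 and 24 h of DAR, -0.0455 in MM.1s at ATO 48 h, -0.44, -0.32 and -0.0806 in KMS11 at ATO 24 h, ATO 48 h and DAR 24 h, and -0.30 and -0.63 in 8226/S at ATO 24 and 48 h. The excess of MM.1s over the mean of the other lines in the controls was 0.57 in 222043_at and 0.0092 in 1559228_at, an alternative added after the data were seen.

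Without the replicate block, with both controls pooled, genes called at DAR 24 h went from 96 (76 higher, 20 lower) to 512 (256 higher, 256 lower), list genes from 1 to 4, the LRP1 change at DAR 6 h was -0.00196, and 10 of 34 calls of named list genes were lost. Pooling moved the median of all genes to 0.14, 0.16 and 0.20 with ATO and to -0.10 and -0.08 with DAR. Median centring gave 642 genes at ATO 6 h (355 higher, 287 lower; 993 before) and 501 at ATO 24 h (225 higher, 276 lower; 777 before), and moved the balance of calls at ATO 48 h, DAR 6 h and DAR 24 h as given above. At DAR 24 h quantile normalization gave 55 genes and the mean of probe sets 58; list genes were 2 with offset 1 and 2 with median centring. With each line left out in turn, the mean change of CLU ranged from 1.08 to 1.66, 1.5 to 2.06 and 1.26 to 1.78 after 6, 24 and 48 h of ATO and from 2.00 to 2.63 and 1.77 to 2.39 after 6 and 24 h of DAR. Genes called ranged from 249 to 807, 202 to 956 and 651 to 2003 with ATO and from 1103 to 1842 and 0 to 75 with DAR, lowest without KMS11 except at DAR 24 h, where 8226/S left 0 by limma and KMS11 left 1. List genes called ranged from 8 to 11, 2 to 11 and 4 to 10 with ATO and 12 to 19 and 0 to 1 with DAR. Of the 10 genes nearest to CLU, 1 to 3 remained without a line, 3 by Spearman's rho, 1 with centred levels, 1 with ATO alone, 0 with DAR alone, and 5, 0 and 0 against 208792_s_at, 222043_at and 1559228_at. The cause of these shifts was not tested. Dim signal limits 1559228_at, above the 50th percentile on 12 of 28 arrays.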
